A study of Homo sapiens with 12 samples.

Results

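The machinery that copies, packages, transcribes and translates mitochondrial DNA is encoded almost wholly in the nucleus, and 38 of its genes were followed here in Huh7 cells with and without knockdown of FAM111B. The genes were taken by name from a fixed list of factors for mitochondrial DNA replication, transcription, RNA processing and translation, plus the matrix protease LONP1. The list was grouped by function, but it was set with earlier results of these data known. All 38 were found among the 60666 genes of the deposited table, and all 38 were among the 14394 genes with enough signal to test. Huh7 is an established human hepatocellular carcinoma line. The Huh7 control cells and the shFAM111B cells, in which a lentiviral short hairpin RNA under puromycin selection gave a stable knockdown, were each sequenced as 3 libraries made from poly(A)-selected RNA. Both groups were grown in high-glucose DMEM with foetal bovine serum. A single hairpin sequence is given for FAM111B. Nothing in the sample labels says that the 3 libraries of a group came from separate cultures, so the p-values measure only the spread between these libraries. The Hep3B libraries of the same study were not analysed here. Expression is given in TPM, a transcript abundance in which reads are divided by transcript length and scaled to a fixed total in each library, so that levels can be set side by side between genes.

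Human mitochondrial DNA is a small circle wrapped by TFAM into compact nucleoids. A single RNA polymerase, POLRMT, starts transcription with TFAM and TFB2M and makes long transcripts from both strands, and TEFM keeps it elongating. The transcripts are then cut at the transfer RNAs, given poly(A) tails by MTPAP, held stable by the LRPPRC and SLIRP pair and broken down by PNPT1 with SUPV3L1. DNA polymerase gamma (POLG with POLG2), the helicase TWNK and the single-strand binding protein SSBP1 form the core of the replication fork, and the messages are read by mitochondrial ribosomes with their own initiation and elongation factors. Many of the nuclear genes for this machinery are known targets of the transcription factors NRF1 and NRF2, the latter (also called GABP) being a member of the ETS family.

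Since NRF1 and ETS sites are the textbook control elements of these genes, the 250 bases before the RefSeq transcription start (GRCh38.p14) were searched on both strands for a relaxed NRF1 core, that is GCGC and again GCGC with any 2 bases between them, and for the ETS core CCGGAAG. Of the 38 genes, 34 had an entry. The relaxed NRF1 core was present in 8 of the 34 (23.5%), against 8.7% of 27305 genes with a promoter entry and 16.4% of the 10126 that were also tested here. The strict NRF1 core, with AT as the bases between, is contained in the relaxed one and occurred in 3 of the 34 (8.82%), against 1.28% and 2.36%. An ETS core was present in 13 of the 34 (38.2%), against 10.2% and 19.2%. The 30-base stretches below are shown because they belong to the genes on which the results turn, with the matched letters in capitals and each stretch written 5′ to 3′ on the strand of its gene.
TFAM, chr10:58385337-58385366, plus strand: acgctctcccGCGCCTGCGCcaattccgcc
POLG2, chr17:64497055-64497084, minus strand: cacgctcacctccgttGCGCCTGCGCcgtg
TFB1M, chr6:155314597-155314626, minus strand: gcaggacttaGCGCATGCGCtctcagcacg
POLRMT, chr19:633542-633571, minus strand: ggcgGCGCGGGCGCATGCGCAGGCGCgggc
GFM1, chr3:158644497-158644526, plus strand: ctttttcctcgcgtcctttgccCCGGAAGt
TFAM and POLG2 carry the same NRF1-type letters, POLRMT carries 3 overlapping matches and TFB1M the strict core. The GFM1 stretch holds an ETS core directly before the start. TFB2M held neither the relaxed NRF1 core nor the ETS core in its window. A match is a description of the letters and not evidence of binding, since no binding data were used.

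The knockdown was present in every library labelled for it. FAM111B had 7.84, 8.29 and 7.99 TPM in the control libraries and 0.96, 1.13 and 0.84 TPM in the shFAM111B libraries, a log2 fold change of -2.20 (standard error 0.113). The hairpin target, ctgcctagtgattctcatt, is printed because transcripts were searched for a full match to it. All 19 bases matched transcripts of 1 gene in GENCODE v29, FAM111B, and of 0 of the 38 genes. Partial matches were not searched, so direct action of the hairpin on other transcripts was not tested. Fold changes here are differences of log2(TPM + 1), shFAM111B minus control, tested for every gene with limma's moderated test and adjusted over all 14394 genes by the Benjamini-Hochberg method. A gene is said to have risen or fallen when its adjusted p was under 0.05.

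Several facts of the whole data set bear on these values. The median of all tested genes was lower in shFAM111B by 0.36 on the log2 scale, and changes of single genes are therefore also given relative to that median for TFAM, TFB2M, POLRMT, FASTKD1 and GFM1. Longer transcripts were lower in shFAM111B (Spearman's rho of log2 fold change and length -0.46 across 14251 genes, which are not independent replicates). The summed TPM of ribosomal, small nuclear and other structural RNAs, which poly(A) selection should largely remove, was 1652 to 4925 in the control libraries and 46866, 68984 and 5023 in shFAM111B replicates 1 to 3. All 8 hepatocyte-type markers (ALB, AFP, TTR, SERPINA1, APOA1, APOB, FGB and TF) were expressed in all 6 libraries, with 3 of them higher and 5 lower in shFAM111B. The summed level of 8 markers of other cell types was 18 to 22 TPM in control and 25 to 27 TPM in shFAM111B, most of it from CD68, while 6 of the 8 were too low to test and VWF, DCN and KRT7 were at or near 0. The part of these differences in the results below was not tested. In bulk RNA, fewer cells that express a gene and less of its RNA in each cell cannot be told apart.

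The 38 genes did not move as a block. In shFAM111B cells 12 of the 38 rose (31.6%) and 19 fell, while 7 did not pass the test. Among all tested genes 21.1% rose and 50.9% fell, so the share that fell was near the background. A change of at least 2-fold upwards was reached by POLRMT and FASTKD1 (5.26% of the genes, against 6.77% of all tested genes). A change of at least 2-fold downwards was reached by 7 genes, GFM1, TFAM, TFB2M, PNPT1, PTCD3, FASTKD5 and MTPAP (18.4%, against 23.7%). The control and shFAM111B libraries did not overlap for 32 of the genes, 12 higher and 20 lower, and for 75.2% of all tested genes. The median log2 fold change of the 38 genes was -0.34, beside -0.36 for all tested genes. The balance of rises and falls depended on how the libraries were scaled. With median-of-ratios scaling 16 of the genes rose and 11 fell, with upper-quartile scaling 14 and 12, with quantile normalization 15 and 12, and with the median of each library subtracted 17 and 9. Rescaling to nuclear protein-coding genes went the other way, with 9 that rose and 20 that fell. The directions of 10 risen and 11 fallen genes were kept in all 17 alternative analyses, and 5 risen genes (POLRMT, FASTKD1, FASTK, TUFM and LONP1) and 8 fallen genes (TFAM, TFB2M, GFM1, PNPT1, FASTKD5, MTPAP, PTCD3 and MTIF2) passed the test in all 17. The summed TPM of the 38 genes was 2088, 2035 and 2060 in control and 2294, 2199 and 2490 in shFAM111B, with SSBP1 and SLIRP as the most abundant members.

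**Figure D1:**
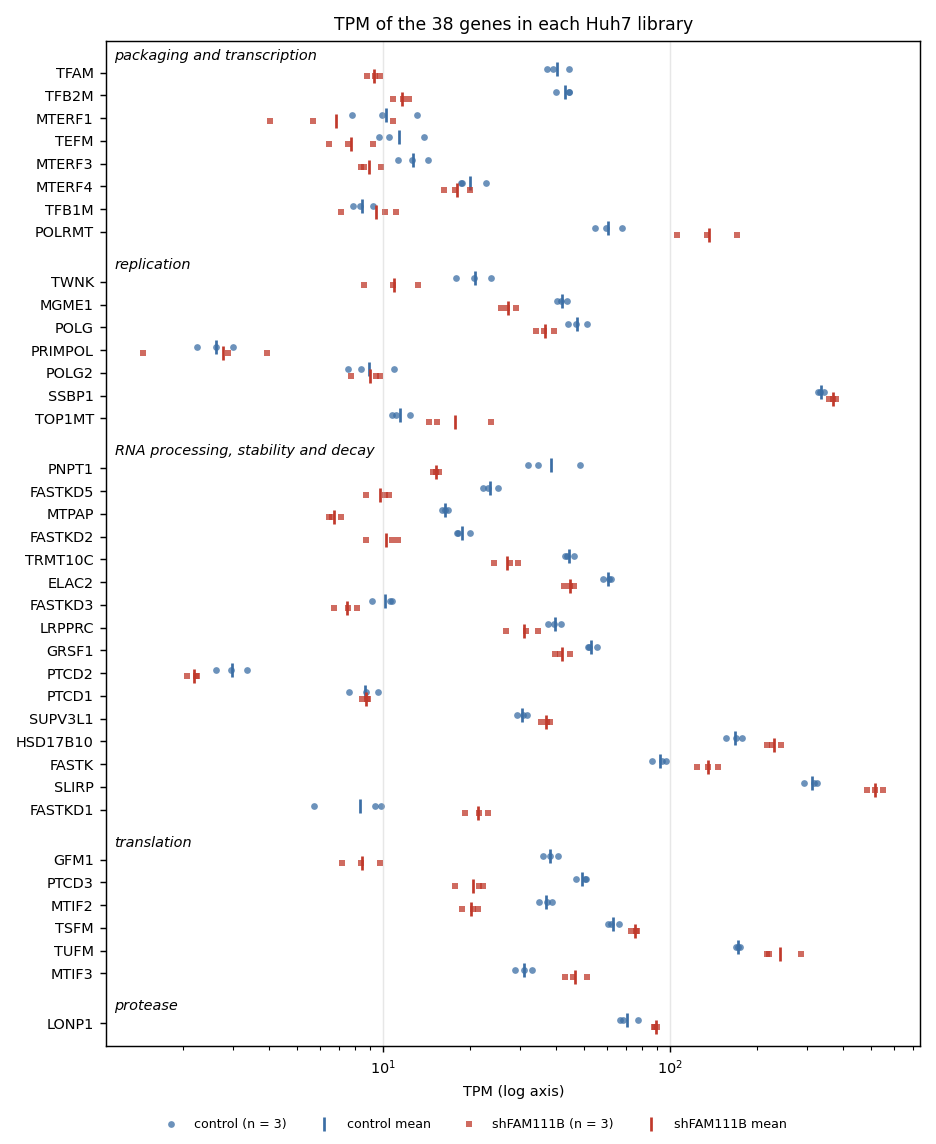
TPM of each of the 38 genes (log axis) in the 3 control libraries (blue circles) and the 3 shFAM111B libraries (red squares), with vertical ticks at the group means and the genes grouped by role. TFAM, TFB2M and GFM1 lie far to the left of control, POLRMT and FASTKD1 to the right, and the groups of 32 genes do not overlap. The groups of 75.2% of all tested genes do not overlap.

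Among the 8 genes for packaging and transcription, the initiation apparatus split, with the polymerase higher and both of its initiation partners lower. TFAM (chr10:58385022-58399221 in GENCODE v29 on GRCh38, as for the other gene positions), which bends the promoters and coats the whole genome, had 44.45, 39.08 and 37.06 TPM in control and 9.73, 9.39 and 8.77 TPM in shFAM111B. All 3 shFAM111B libraries were under 10 TPM and all 3 control libraries over 37 TPM. TFAM fell by 2.00 on the log2 scale (standard error 0.0878, limma with Benjamini-Hochberg adjustment, adjusted p = 3.91e-06), which was -1.64 relative to the median gene and placed it at percentile 3.04 of all tested genes. Its mean was 40.2 ± 3.82 TPM in control and 9.30 ± 0.487 TPM in shFAM111B (SD, n = 3 each), a mean 4.32 times as high in control.

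TFB2M (chr1:246540560-246566324), the factor that melts the promoter DNA for the polymerase, behaved alike. It had 44.25, 40.06 and 44.49 TPM in control and 12.28, 11.74 and 10.83 TPM in shFAM111B, a log2 fold change of -1.80 (standard error 0.0767, limma with Benjamini-Hochberg adjustment, adjusted p = 3.61e-06) and of -1.44 relative to the median gene. TFB1M, its paralogue, is known as a methyltransferase of the small ribosomal RNA rather than an initiation factor. TFB1M had 8.30, 7.82 and 9.23 TPM in control and 7.13, 11.08 and 10.13 TPM in shFAM111B, and these groups overlapped (log2 fold change 0.13, 95% interval -0.25 to 0.51). With the libraries rescaled by median-of-ratios, upper quartile, quantiles or the median, TFB1M passed the test with values from 0.50 to 0.66.

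POLRMT (chr19:617224-633604), the mitochondrial RNA polymerase itself, moved the other way. Its TPM were 67.97, 54.63 and 59.52 in control and 134.26, 105.15 and 170.24 in shFAM111B. The lowest shFAM111B library was well above the highest control library, but the shFAM111B libraries were widely spread. POLRMT rose by 1.13 on the log2 scale (standard error 0.172, limma with Benjamini-Hochberg adjustment, adjusted p = 0.000782), or 1.496 relative to the median gene, and stood at percentile 94.4 of all tested genes. Without shFAM111B replicate 3, its highest library, the value was 0.96, under the 2-fold mark.

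The other transcription factors showed smaller differences. TEFM, the elongation factor, had 9.67, 10.46 and 13.84 TPM in control and 9.20, 6.48 and 7.55 TPM in shFAM111B, and the call rested on a narrow gap between 9.67 and 9.20 TPM (log2 fold change -0.49, limma with Benjamini-Hochberg adjustment, adjusted p = 0.0312). It no longer passed when control replicate 2, control replicate 3, shFAM111B replicate 2 or shFAM111B replicate 3 was left out (log2 fold changes -0.54, -0.35, -0.39 and -0.48). MTERF3 had 14.30, 12.55 and 11.29 TPM in control and 8.56, 9.82 and 8.35 TPM in shFAM111B and fell by 0.47 on the log2 scale. The MTERF family shares a helical repeat fold that grips DNA or RNA. Its other members here did not pass, with MTERF1 at -0.59 (standard error 0.323) and MTERF4 at -0.15 (standard error 0.110). MTERF4 passed as higher under median-of-ratios scaling, quantile normalization and median subtraction (0.29, 0.34 and 0.39). MTERF1 was the most variable, at 7.78 to 13.08 TPM in control and 4.04 to 10.77 TPM in shFAM111B. Leaving out shFAM111B replicate 3 moved it to -0.93, which passed, and leaving out shFAM111B replicate 1 or control replicate 1 moved it to -0.31 or -0.41. Under quantile normalization and median subtraction the TEFM and MTERF3 values turned slightly positive, between 0.03 and 0.07.

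Of the 7 replication genes, 3 fell (42.9%), 2 rose (28.6%) and 2 did not pass. Of all tested genes 50.9% fell and 21.1% rose. None of the 7 changed by 2-fold. TWNK (chr10:100987367-100994401), the helicase that unwinds the duplex ahead of the polymerase, had 23.74, 20.77 and 17.96 TPM in control and 8.56, 10.84 and 13.26 TPM in shFAM111B. It fell by 0.89 on the log2 scale (standard error 0.166, limma with Benjamini-Hochberg adjustment, adjusted p = 0.00225). The TWNK value was -0.39 under quantile normalization and -0.35 under median subtraction, where it did not pass. POLG (chr15:89305198-89334861), the catalytic subunit of the polymerase, had 43.96, 46.85 and 51.31 TPM in control and 34.12, 39.29 and 36.24 TPM in shFAM111B, a log2 fold change of -0.36, close to that of the median gene. POLG was called as lower with the TPM as deposited, but its value turned positive under median-of-ratios scaling, upper-quartile scaling and median subtraction (0.04 to 0.17), and after removal of the length and expression trend it was 0.26 and passed as higher. POLG2, the accessory subunit, had 7.52 to 10.92 TPM in control and 7.71 to 9.75 TPM in shFAM111B, with a log2 fold change of 0.02 (95% interval -0.35 to 0.38). POLG2 passed as higher under median-of-ratios scaling, quantile normalization and median subtraction (0.42, 0.54 and 0.55).

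MGME1, the exonuclease that trims DNA ends during replication, had 41.75, 43.56 and 40.32 TPM in control and 26.89, 28.89 and 25.66 TPM in shFAM111B, and fell by 0.61 on the log2 scale. The MGME1 value was -0.17 under median-of-ratios scaling and -0.08 under median subtraction, and did not pass under either. SSBP1, which coats single-stranded DNA, was the most abundant of the 38 genes in control and the second, after SLIRP, in shFAM111B. SSBP1 had 332.15, 342.73 and 327.34 TPM in control and 369.63, 357.59 and 378.39 TPM in shFAM111B, a log2 fold change of 0.14 with a standard error of 0.0421. This small rise was -0.11 under quantile normalization and 0.01 after rescaling to nuclear protein-coding genes, and it lost its call when shFAM111B replicate 1, control replicate 1 or control replicate 3 was left out (0.13 to 0.14). TOP1MT, the mitochondrial topoisomerase that relieves supercoils, had 10.70, 11.07 and 12.42 TPM in control and 15.42, 14.41 and 23.70 TPM in shFAM111B and rose by 0.57 on the log2 scale. Its call was lost without control replicate 1 or control replicate 2 (0.53 and 0.56), and without shFAM111B replicate 3, its highest library, the value was 0.36. PRIMPOL, a primase and polymerase that works at stalled forks, was the least expressed of the replication genes at 2.25 to 2.99 TPM in control and 1.46 to 3.94 TPM in shFAM111B (log2 fold change 0.00347, 95% interval -0.61 to 0.61).

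The 16 genes for RNA processing, stability and decay also moved both ways. Among all tested genes 21.1% rose and 50.9% fell, and of these 16 genes 5 rose (31.2%), 9 fell (56.2%) and 2 did not pass. The largest fall was that of PNPT1 (chr2:55634265-55693910), the exoribonuclease PNPase. PNPT1 had 48.32, 34.66 and 31.98 TPM in control and 14.96, 15.29 and 15.64 TPM in shFAM111B, a log2 fold change of -1.25 (standard error 0.147, limma with Benjamini-Hochberg adjustment, adjusted p = 0.000217). Its helicase partner in the degradosome, SUPV3L1, had 30.5 ± 1.16 TPM in control and 36.9 ± 1.45 TPM in shFAM111B (SD, n = 3) and rose by 0.27, a call that was lost after rescaling to nuclear protein-coding genes (0.14). MTPAP (chr10:30309801-30374448), the poly(A) polymerase, had 16.06, 16.81 and 16.41 TPM in control and 6.48, 7.15 and 6.65 TPM in shFAM111B. Both groups were tight for MTPAP, whose log2 fold change was -1.17 (standard error 0.0783).

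LRPPRC and SLIRP form a complex that protects mitochondrial mRNAs, and with the TPM as deposited their own mRNAs moved in opposite directions. LRPPRC, the large scaffold, had 39.5 ± 2.04 TPM in control and 30.9 ± 3.99 TPM in shFAM111B (SD, n = 3), a log2 fold change of -0.35 close to that of the median gene, and it turned positive (0.02 to 0.18) under median-of-ratios, upper-quartile and quantile scaling and median subtraction. Without control replicate 1 the LRPPRC call was lost (-0.31). SLIRP (chr14:77708071-77761104), the small RNA-binding subunit and the most abundant of the 38 genes in shFAM111B, had 325.08, 293.16 and 315.41 TPM in control and 515.26, 485.48 and 552.57 TPM in shFAM111B. SLIRP rose by 0.73 on the log2 scale (standard error 0.0635, limma with Benjamini-Hochberg adjustment, adjusted p = 4.83e-05). After removal of the length and expression trend SLIRP was at 0.04 and no longer passed, while LRPPRC passed as higher at 0.42. GRSF1, a component of the granules where new transcripts are processed, fell by 0.34, again near the median gene, and its value was between 0.07 and 0.20 under median-of-ratios scaling, upper-quartile scaling and median subtraction.

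The enzymes that cut out the transfer RNAs also split. TRMT10C and HSD17B10 are subunits of mitochondrial RNase P, which cuts the 5′ end, and ELAC2 cuts the 3′ end. TRMT10C had 44.2 ± 1.59 TPM in control and 27.1 ± 2.60 TPM in shFAM111B (SD, n = 3) and fell by 0.69. HSD17B10 had 156.15, 177.67 and 169.32 TPM in control and 226.31, 217.24 and 243.91 TPM in shFAM111B and rose by 0.45, but after removal of the length and expression trend it was lower, like TRMT10C (-0.20 and -0.62). Under median subtraction TRMT10C was at -0.16 and did not pass. ELAC2 went from 60.5 ± 2.00 to 44.5 ± 1.83 TPM (SD, n = 3), a fall of 0.43, and its value was slightly positive (0.01 and 0.10) under median-of-ratios scaling and median subtraction.

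The FASTK family of RNA-binding proteins, which act on individual mitochondrial transcripts, held the largest rise of all 38 genes as well as one of the larger falls. FASTKD1 (chr2:169529749-169573875) had 5.72, 9.37 and 9.80 TPM in control and 23.24, 19.29 and 21.51 TPM in shFAM111B. It rose by 1.29 on the log2 scale (standard error 0.189, limma with Benjamini-Hochberg adjustment, adjusted p = 0.000651), or 1.65 relative to the median gene, and stood at percentile 95.9 of all tested genes. FASTK, the founding member, had 93.90, 86.35 and 96.26 TPM in control and 135.19, 123.45 and 147.01 TPM in shFAM111B, a log2 fold change of 0.55. FASTKD5 (chr20:3146519-3159897), known for processing junctions that lack a transfer RNA, had 25.18, 22.29 and 23.25 TPM in control and 10.47, 10.13 and 8.74 TPM in shFAM111B, a log2 fold change of -1.19 (standard error 0.0923). FASTKD2 fell by 0.82, and FASTKD3 by 0.39, the latter being slightly positive (0.01 to 0.14) under median-of-ratios scaling, quantile normalization and median subtraction. Of the pentatricopeptide repeat proteins in this group, PTCD1 had a log2 fold change of 0.00943 (95% interval -0.24 to 0.25) and PTCD2, at 2.07 to 3.34 TPM in the 6 libraries, had -0.32 (limma with Benjamini-Hochberg adjustment, adjusted p = 0.0532). The PTCD1 locus shares its strand with the much more abundant ATP5MF (1090 TPM in control and 1850 TPM in shFAM111B) and with a read-through transcript of both, so its value is uncertain.

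The 6 translation factors all passed the test, 3 in each direction, while 21.1% of all tested genes rose and 50.9% fell. GFM1 (chr3:158644278-158692575), the elongation factor that moves the ribosome along the message, had the largest fall of the 38 genes. GFM1 had 38.03, 40.60 and 35.89 TPM in control and 8.39, 9.73 and 7.19 TPM in shFAM111B. Its log2 fold change was -2.06 (standard error 0.112, limma with Benjamini-Hochberg adjustment, adjusted p = 7.1e-06), or -1.70 relative to the median gene, at percentile 2.55 of all tested genes. PTCD3, a protein of the small ribosomal subunit, had 50.42, 50.87 and 46.88 TPM in control and 21.50, 22.26 and 17.83 TPM in shFAM111B, a log2 fold change of -1.23. MTIF2, the initiation factor that brings the first transfer RNA, had 38.69, 37.26 and 34.86 TPM in control and 20.58, 18.86 and 21.30 TPM in shFAM111B, a log2 fold change of -0.84. The other initiation factor and the factors that deliver transfer RNAs were higher. TUFM, which carries the loaded transfer RNAs, had 169.49, 171.47 and 175.60 TPM in control and 221.32, 216.60 and 285.54 TPM in shFAM111B, a log2 fold change of 0.47. TSFM, which recycles TUFM, had 62.04, 60.50 and 66.22 TPM in control and 73.01, 76.06 and 76.35 TPM in shFAM111B, a log2 fold change of 0.25, or 0.13 and no longer past the test after rescaling to nuclear protein-coding genes. MTIF3 had 32.92, 28.79 and 30.81 TPM in control and 45.85, 42.94 and 51.35 TPM in shFAM111B, a log2 fold change of 0.58. For all 6 factors the groups were separate in these libraries, as they were for 75.2% of all tested genes.

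LONP1 (chr19:5691834-5720572), the matrix protease known to degrade TFAM that is not bound to DNA, had 68.20, 67.00 and 77.01 TPM in control and 90.00, 87.84 and 88.68 TPM in shFAM111B. It rose by 0.33 on the log2 scale (standard error 0.0635, limma with Benjamini-Hochberg adjustment, adjusted p = 0.00274). Its locus overlaps RPL36 on the opposite strand, which had 762 TPM in control and 1760 TPM in shFAM111B. Other neighbours on the opposite strand were MRPL43 for TWNK (63.8 and 108 TPM in control and shFAM111B), SNX5 for MGME1 (241 and 162 TPM) and FANCI for POLG (51.4 and 28.3 TPM). The sample labels name a stranded mRNA library kit and the paper a TruSeq RNA kit. Whether the counting used strand is not stated in the sources used here, so reads of such pairs could be mixed. The pseudogene copies named after TFAM, POLRMT, SLIRP, PNPT1, PTCD2, TUFM and MTIF2 were at or near 0 TPM.

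**Figure D2:**
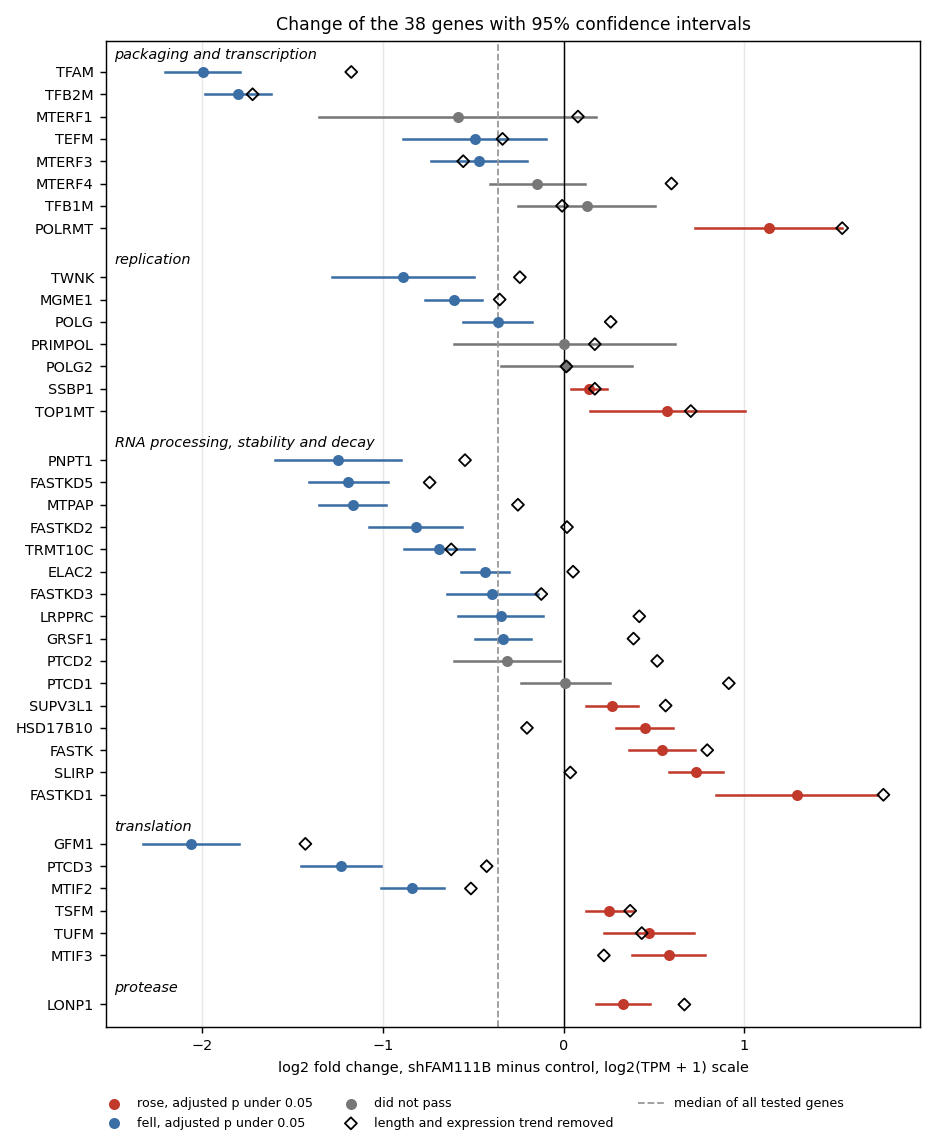
Log2 fold change (shFAM111B minus control, log2(TPM + 1) scale) of the 38 genes with 95% confidence intervals, coloured by call, with open diamonds for the value after the trend with transcript length and expression is removed and a dashed line at the median of all tested genes (-0.36). TFAM, TFB2M and GFM1 stay below -1 and POLRMT and FASTKD1 above 1 on both measures, while SLIRP and FASTKD2 move close to 0.

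Because 2 genes measured in the same library share its scaling, ratios within a library do not depend on the total to which TPM are scaled. They were formed for 12 pairs of working partners or paralogues that were chosen after the values had been seen, and they are given as a description, with no test. The ratio of TFAM to POLRMT was 0.654, 0.715 and 0.623 in the control libraries and 0.0725, 0.0893 and 0.0515 in the shFAM111B libraries, 9.56-fold lower by the mean of the logarithms. TFB2M to POLRMT was 0.651, 0.733 and 0.747 in control and 0.0915, 0.112 and 0.0636 in shFAM111B, 8.19-fold lower. POLRMT mRNA thus exceeded that of both partners in every library, by a much wider margin in shFAM111B.

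Between the elongation factors, GFM1 to TUFM was 0.224, 0.237 and 0.204 in control and 0.0379, 0.0449 and 0.0252 in shFAM111B, 6.33-fold lower. The paralogue ratio TFB2M to TFB1M was 5.33, 5.12 and 4.82 in control and 1.72, 1.06 and 1.07 in shFAM111B, 4.07-fold lower. Within the degradosome, PNPT1 to SUPV3L1 was 1.53, 1.13 and 1.09 in control and 0.392, 0.433 and 0.419 in shFAM111B, 2.98-fold lower. The order of these partners was thus reversed, with PNPT1 above SUPV3L1 in each control library and below it in each shFAM111B library. The initiation factors MTIF2 and MTIF3 changed order in the same manner, with ratios of 1.18, 1.29 and 1.13 in control and 0.449, 0.439 and 0.415 in shFAM111B. TRMT10C to HSD17B10 was 2.24-fold lower and LRPPRC to SLIRP 2.13-fold lower, FASTKD1 to FASTK was 1.8-fold higher and TSFM to TUFM 1.16-fold lower. The control and shFAM111B ratios did not overlap for 10 of the 12 pairs, while 75.2% of single tested genes did not overlap. As the pairs were picked with their values known and no other pairs were formed, this count has no background of its own. The ratios that overlapped were TWNK to POLG, at 0.35 to 0.54 in control and 0.251 to 0.366 in shFAM111B, and POLG to POLG2, at 4.7 to 5.85 and 3.6 to 4.7.

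Transcript length and base composition moved with the results and are given beside them. Across the 38 genes Spearman's rho of log2 fold change was -0.363 with the length of the longest annotated transcript and 0.384 with its GC content, against -0.46 and 0.309 for all tested genes with a length. These points share the same 6 libraries, and no p is given. None of the 10 genes with a transcript over 4500 nt rose and 7 fell, with a median log2 fold change of -0.36 beside -0.85 for 4359 tested genes of that length. Of those 4359 genes, 333 rose and 3180 fell. In the class from 2000 to 3000 nt, 6 of 12 rose and 5 fell (median 0.07, all tested genes -0.20). Of all 2923 tested genes in that class, 700 rose and 1307 fell. In the class up to 2000 nt, 3 of 8 rose and 3 fell (0.07 and 0.27), beside 1548 and 789 of 3713 tested genes. From 3000 to 4500 nt, 3 of 8 rose and 4 fell (-0.51 and -0.54), beside 430 and 2006 of 3256 tested genes.

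When the trend of log2 fold change with length and expression over all tested genes was removed, the largest differences were TFB2M at -1.72, GFM1 at -1.43, TFAM at -1.17, POLRMT at 1.54 and FASTKD1 at 1.77, the 5 genes that stayed past 2-fold. GC content was not part of the removed trend. It was 66.3% for POLRMT, 37.7% for FASTKD1, 38.4% for TFAM, 41.9% for TFB2M and 41.3% for GFM1. TFB2M has a transcript of 1848 nt, in the length class whose median gene was higher in shFAM111B, whereas TFAM has one of 5414 nt. PNPT1, FASTKD5, PTCD3 and MTPAP kept their direction and their calls at -0.55, -0.74, -0.43 and -0.25. TWNK (-0.24), TEFM (-0.34), FASTKD3 (-0.12), SLIRP (0.04) and MTIF3 (0.22) no longer passed (limma with Benjamini-Hochberg adjustment, adjusted p = 0.228, 0.111, 0.34, 0.636 and 0.0567), and neither did FASTKD2 (0.02) and ELAC2 (0.05). LRPPRC, GRSF1 and POLG, which had fallen, passed as higher at 0.42, 0.39 and 0.26, and HSD17B10, which had risen, passed as lower at -0.20. PTCD1, with a transcript of 5582 nt, MTERF4 and PTCD2 passed as higher at 0.91, 0.60 and 0.52.

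**Figure D3:**
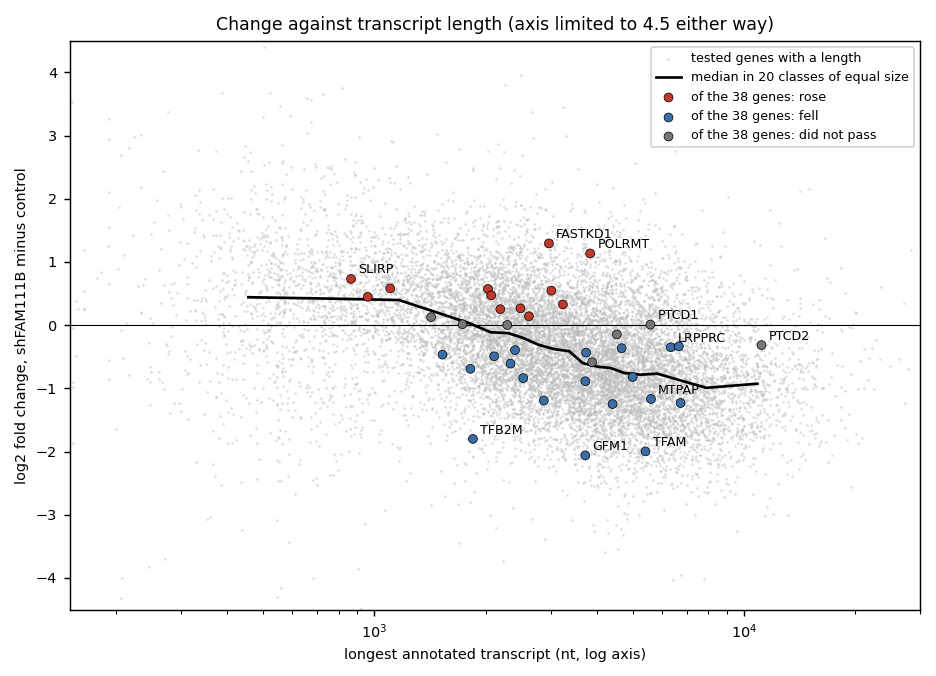
Log2 fold change (shFAM111B minus control) against the length of the longest annotated transcript (nt, log axis) for the tested genes (grey) and the 38 genes (coloured by call), with the running median of 20 length classes as a black line. The median declines with length, TFB2M, GFM1 and TFAM lie well below it, and FASTKD1 and POLRMT well above it.

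Both directions of change occurred among genes with and without the promoter letters. Of the 8 genes with a relaxed NRF1 core, 3 rose (POLRMT, HSD17B10 and LONP1), 2 fell (TFAM and FASTKD3) and TFB1M, POLG2 and MTERF4 did not pass, and their log2 fold changes had a median of 0.07. Of the 26 without it, 8 rose and 14 fell, with a median of -0.36. Of the 13 with an ETS core, 5 rose and 4 fell (median 0.02), and of the 21 without, 6 rose and 12 fell (median -0.35). TFAM and POLG2, whose NRF1-type letters are identical in the stretches shown earlier, differed, since TFAM fell by 2.00 on the log2 scale and POLG2 had a log2 fold change of 0.02. POLRMT, LONP1 and TFB1M, the 3 genes that hold the strict core, had 1.13, 0.33 and 0.13. These counts are a description of 34 genes, with no test, beside 21.1% of all tested genes that rose and 50.9% that fell.

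A further 78 genes of the same pathways were read from the same fit, and 77 of them were tested. They were listed by function, again with earlier results of these data known. Of the 77 tested, 14 rose (18.2%), 42 fell (54.5%) and 21 did not pass, with a median log2 fold change of -0.36. Among all tested genes the shares that rose and fell were 21.1% and 50.9%. In the list of 17 genes for replication and nucleotide supply outside the fork, 11 fell and 2 rose, 8 fell by at least 2-fold (47.1%, against 23.7% of all tested genes), and the median was -0.94. These 8, named here after their values were seen, were DNA2, LIG3, RRM2B, SLC25A36, RNASEH1, TOP3A, EXOG and ABAT. They are not all specific to mitochondrial DNA, and DNA2 and LIG3 are examples that also serve the nucleus. EXOG had 18.92, 8.08 and 8.26 TPM in control, and its log2 fold change of -1.09 was -0.72 without control replicate 1 and -0.98 without shFAM111B replicate 1. DNA2 and LIG3 were the genes still lower by at least 2-fold under median-of-ratios scaling, quantile normalization and median subtraction, joined by RRM2B under upper-quartile scaling, and DNA2 and RNASEH1 were those with the length and expression trend removed. Of 36 genes for RNA modification, processing and decay, 7 rose and 16 fell (median -0.18), and of 14 tested translation genes 2 rose and 9 fell (median -0.45).

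Among the 10 proteases and chaperones, 3 rose (30%) and 6 fell (60%), against 21.1% and 50.9% of all tested genes. These 10 held most of the extreme values of the wider list. CLPP and CLPX, the peptidase and the unfoldase of the same matrix protease, moved in opposite directions. CLPP had 43.11, 38.53 and 36.77 TPM in control and 93.23, 90.55 and 134.42 TPM in shFAM111B, a log2 fold change of 1.38. CLPX had 52.30, 42.95 and 41.10 TPM in control and 12.84, 14.60 and 11.32 TPM in shFAM111B, a log2 fold change of -1.74. YME1L1, an inner membrane protease, fell by 1.80 from 99.4 ± 4.67 to 27.8 ± 2.76 TPM (SD, n = 3), while HTRA2, a protease of the intermembrane space, rose by 0.95. GTPBP3, which modifies transfer RNAs, fell by 1.66, and RPUSD4, a pseudouridine synthase of the large ribosomal RNA, rose by 0.81. These 6 are the 3 largest rises and falls among those of the 77 whose mean over all 6 libraries was at least 10 TPM.

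The products of the machinery, the RNAs of the mitochondrial chromosome, were measured in the same libraries. Of the 13 mitochondrial mRNAs 12 fell (92.3%, against 50.9% of all tested genes), 8 of them by at least 2-fold (61.5%, against 23.7%). These 8 include MT-ATP8 (-4.32) and MT-ND4L (-4.74), whose neighbours MT-ATP6 and MT-ND4 had -0.65 and -1.06. The summed TPM of the 13 mRNAs was 192540 ± 2967 in control and 72253 ± 2416 in shFAM111B (SD, n = 3). Without MT-ATP8 and MT-ND4L, whose reading frames overlap those of their neighbours, the sums were 114255 ± 2476 and 68426 ± 1209. MT-ND6, the mRNA encoded on the other strand from the rest, had 4314.76, 4506.19 and 4471.99 TPM in control and 4760.99, 4986.88 and 4483.48 TPM in shFAM111B, and these groups overlapped (log2 fold change 0.10, 95% interval -0.03 to 0.22). As it is not stated whether the counting used strand, the MT-ND6 value could hold reads of the opposite strand. How far poly(A) selection captured MT-ND6 was not tested either, so its level may not compare with the other mRNAs. The ribosomal RNA MT-RNR2 had a log2 fold change of -1.13 and MT-RNR1 one of -0.11 (95% interval -0.33 to 0.12). Of the mRNAs and both ribosomal RNAs, 13 fell with the TPM as deposited. That number was 11 under median-of-ratios scaling, upper-quartile scaling or quantile normalization. It was 9 under median subtraction, 13 after rescaling to nuclear protein-coding genes and 14 with the length and expression trend removed. The relation between the levels of the machinery and of these products was not tested, and RNA libraries measure neither mitochondrial DNA copy number nor protein.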

How the data were processed

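RNA was sequenced from 3 Huh7 control and 3 shFAM111B libraries. The authors deposited 1 Huh7 table with the TPM of each library, and TPM hold no sequencing depth, so the precision behind each value is unknown beyond the spread of replicates. Its further columns (group means, the authors' fold change, log2 fold change, p-value and adjusted p-value) were not used. The submitters' processing notes name RSEM, DESeq2 and hg38, without versions or roles. Genes that reached 1 TPM in 3 or more of the 6 libraries were tested (14394), 1 was added and log2 taken, and the groups were compared with limma 3.58.1 (trend, R 4.3.3) and Benjamini-Hochberg adjustment. The added 1 understates changes of genes with few TPM. Names, positions and lengths come from GENCODE v29, in which 58420 of 60666 identifiers (96.3%) were found. Python 3.11.15, pandas 2.3.3, scipy 1.17.1 and matplotlib 3.10.9 were used, and the scripts were tested on simulated data. Pairs of libraries correlated at 0.969 to 0.984 within groups and 0.865 to 0.883 between them, and at most 0.889% of tested genes had identical TPM in 2 libraries of a group.

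The members, the lists of other genes and the markers were chosen with earlier results of these data known. Values in every library are given for TFAM, POLRMT, TWNK, POLG and LONP1 and, in each role, for the 3 largest rises and falls among called genes, and of the other pathway genes the 3 largest rises and falls with a mean over all 6 libraries of at least 10 TPM are named. Further genes are named to account for every member. Alternatives were a pseudocount of 0.1, other filters, 5 scalings, removal of the trend with length and expression by loess (span 0.75), limma without a trend, the replicate number as a block, and each library left out.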

Additional observations from a re-analysis of the deposited data

How the results depend on the processing

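Of 764 values of single genes under the alternatives, 664 kept their direction and their side of the threshold, 34 lost and 16 gained a call, and 50 changed sign. The 12 rises and 19 falls became 16 and 11 with median-of-ratios scaling, 14 and 12 with upper-quartile scaling, 15 and 12 with quantile normalization, 17 and 9 with the median of each library subtracted, 9 and 20 after rescaling to nuclear protein-coding genes and 15 and 12 with the length and expression trend removed. In the same order the members at least 2-fold higher numbered 4, 3, 3, 7, 2 and 2, those at least 2-fold lower 3, 3, 3, 3, 8 and 3, the median of the members was 0.0865, 0.047, 0.0253, 0.191, -0.468 and 0.0445, and the median of all tested genes 0.0283, -0.00616, -0.0298, 0.171, -0.486 and -0.0184. Without a filter the median of all genes was -0.0439. The other pathway genes that rose and fell numbered 31 and 28, 30 and 28, 25 and 30, 35 and 21, 11 and 48, and 22 and 22. Leaving out single libraries gave 10 to 12 rises and 18 or 19 falls, 1 or 2 genes at least 2-fold higher (1 without shFAM111B replicate 3) and 7 or 8 at least 2-fold lower.

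Signs turned as follows. With the trend removed TFB1M was -0.00869, MTERF1 0.0792, MTERF4 0.596, POLG 0.26, LRPPRC 0.418, FASTKD2 0.0184, ELAC2 0.0521, HSD17B10 -0.203, PTCD2 0.517 and GRSF1 0.386. With median-of-ratios scaling MTERF4 was 0.286, POLG 0.0796, LRPPRC 0.0935, FASTKD3 0.0136, ELAC2 0.0132, PTCD2 0.0113 and GRSF1 0.111, and with upper-quartile scaling MTERF4 was 0.247, POLG 0.04, LRPPRC 0.0541 and GRSF1 0.071. With quantile normalization TEFM was 0.0301, MTERF3 0.0613, MTERF4 0.336, SSBP1 -0.109, LRPPRC 0.0205, FASTKD3 0.129 and PTCD2 0.00189. With median subtraction TEFM was 0.041, MTERF3 0.0672, MTERF4 0.387, POLG 0.168, LRPPRC 0.184, FASTKD3 0.139, ELAC2 0.0996, PTCD2 0.218 and GRSF1 0.198. After protein-coding rescaling POLG2 was -0.0997, PRIMPOL -0.0922 and PTCD1 -0.106, and with a pseudocount of 0.1 PRIMPOL was -0.0224. Without single libraries POLG2 was between -0.0878 and 0.154, PRIMPOL between -0.222 and 0.281 and PTCD1 between -0.07 and 0.0807. The cause of these turns was not tested, beyond the shift of all genes that each scaling makes by construction.

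With the replicate number as a block 12 members rose and 19 fell. Libraries with the same number correlated at 0.0349 to 0.0908 across genes after the group means were removed, and those with different numbers at -0.0763 to 0.0442. Replicates 1 and 3 of shFAM111B correlated best with the control of the same number. Replicate 2 correlated best with control replicate 1 (0.0442 against 0.0349). Correlations this small did not settle whether the numbers pair the libraries, and the main fit did not pair them. The unknown depth limits the genes with few TPM, such as PRIMPOL and PTCD2.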
